A study of Mus musculus with 12 samples.

Results

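Histones are the proteins around which nuclear DNA is wound. The core histones H2A, H2B, H3 and H4 form the nucleosome core in pairs, and a linker histone of the H1 family binds where DNA enters and leaves it. The genes followed here are the rows of the expression table whose symbol names a linker histone (H1f), a clustered core histone (H2ac, H2bc, H3c, H4c) or an H3.3 gene (H3f3), with pseudogenes left out, 73 of the 24824 genes in the table. Of these, 65 are counted by their symbols as genes of the histone clusters, 5 are other linker genes and 3 are H3.3 genes. Among the other linker genes, H1f6 also lies between clustered genes on chromosome 13. The set was chosen on measured values: the fall of the linker gene H1f0 in Cu/ES-treated against untreated cells was already known when it was drawn up. The comparison of groups B and A is therefore given as a description, with no p-value, and nothing is drawn from its counts.

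AML12 is an immortalized line of mouse hepatocytes. Cells of group A were kept in standard medium. In group B, CuCl2 (300 μM) and elesclomol (40 nM), an ionophore that carries copper into cells, were added, a treatment called Cu/ES. Group C had the same Cu/ES plus the bile acid taurocholic acid (TCA, 1000 μM), and for group D that dose of TCA was added alone. Treatment lasted 24 h, and each group had 3 libraries. All cells shared the medium with serum and an insulin, transferrin and selenium supplement, and no source states that the 3 libraries of a group came from separate cultures, so p-values measure the spread between these libraries, which may be technical. Gene reads recovered from the table ran from 29115012 to 34912749 per library with Cu/ES and from 38298858 to 39782143 without it. Of 8 hepatocyte marker genes, Krt8, Krt18 and Apoe were at 1 FPKM or more in every library, whereas Alb and Hnf4a averaged under 0.05 FPKM in every group.

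Most histone messages are unlike other messages. Genes of the clusters are transcribed mainly in S phase, when DNA is copied, and their messages end in a conserved stem-loop in place of a poly(A) tail. Messages for H1f0, for the related H1f10 and for the variant H3.3 are made outside S phase too, and carry a tail. H1f0 encodes H1.0, a linker histone that accumulates in cells that have stopped dividing or have differentiated. These libraries were made from polyadenylated RNA, so for clustered genes the values count only those messages that were retained by poly(A) selection.

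The 3′ ends were searched for a stem-loop and for a polyadenylation signal, which did not sort all members into these kinds. Classes used below follow the gene symbols. In GENCODE transcript models (release M21, GRCm38), a stem-loop of 16 bases was found after the stop codon in 42 of the 67 members with a model, between 21 and 58 bases past the stop codon. It was searched as the conserved histone stem and loop with either purine or pyrimidine allowed where family members differ, on the sense strand only. Of the members described below, 8 are printed 5′ to 3′ as DNA, with the stem-loop in capitals and up to 5 flanking bases in lower case, because they hold genes that went in opposite directions and a linker gene whose groups overlapped.
H1f2, chr13:23739507-23739532 (+): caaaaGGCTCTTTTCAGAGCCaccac
H2ac18, chr3:96246027-96246052 (+): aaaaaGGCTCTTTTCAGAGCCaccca
H2bc3, chr13:23747198-23747223 (+): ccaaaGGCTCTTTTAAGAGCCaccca
H2bc11, chr13:22043633-22043658 (+): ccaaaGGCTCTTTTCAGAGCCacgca
H3c2, chr13:23752815-23752840 (+): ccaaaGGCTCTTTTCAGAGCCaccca
H3c14, chr3:96247322-96247347 (+): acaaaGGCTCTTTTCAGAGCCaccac
H4c9, chr13:22040961-22040986 (-): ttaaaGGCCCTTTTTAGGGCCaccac
H4c18, chr13:21831793-21831818 (-): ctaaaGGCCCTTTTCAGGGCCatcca
No match was found in H1f0, H1f10, H3f3a, H3f3b, H2bc4 or H2bc21, each of which has at least 40 bases after its stop codon. The polyadenylation signal AATAAA stood in the last 40 bases of 14 members, among them H1f0, H1f10, H3f3a and H2bc21, and 8 members, among them H1f2 and H3c14, had both features. Another 22 members had no stem-loop match and fewer than 40 bases of model after the stop codon, or no model.

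Promoter sequences from RefSeq (GRCm38.p6) were matched for 64 of the 73 members and read over the 250 bases before the start site. The CCAAT box, searched as CCAAT on both strands, lay in 47 of 57 clustered genes (82.5%) against 33.8% of all 32851 promoters. TATAA lay in 35 of 57 (61.4%) against 22.8%, and AAACACA, the H1 box of linker genes, in 8 of 57 (14%) against 6.25%. A search for GAANNTTC found 9 of 57 (15.8%) against 6.69%. Printed here are the most abundant linker genes, H1f0 and H1f2, with matches to these motifs in capitals.
H1f0, GRCm38.p6 chr15:79027962-79028211 (+): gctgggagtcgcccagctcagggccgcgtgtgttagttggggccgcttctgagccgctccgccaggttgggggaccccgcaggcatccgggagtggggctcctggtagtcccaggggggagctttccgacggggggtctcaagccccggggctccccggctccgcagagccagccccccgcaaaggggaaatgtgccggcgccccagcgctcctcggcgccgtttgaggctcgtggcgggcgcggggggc
H1f2, GRCm38.p6 chr13:23738557-23738806 (+): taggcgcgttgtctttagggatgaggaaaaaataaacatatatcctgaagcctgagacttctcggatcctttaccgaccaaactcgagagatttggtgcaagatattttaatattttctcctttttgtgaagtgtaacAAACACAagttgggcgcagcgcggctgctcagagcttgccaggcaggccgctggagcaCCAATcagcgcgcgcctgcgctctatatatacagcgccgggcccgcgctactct
H1f2 held 1 CCAAT and 1 AAACACA, whereas H1f0 held none of the 4 motifs in this window.

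H1f0 was the third most abundant member by mean FPKM over the libraries and nearly disappeared with Cu/ES. It was measured at 309, 385 and 319 FPKM in group A and at 0.523, 0.273 and 0.397 FPKM in group B, a mean 849-fold lower. With TCA in both arms, it was at 231, 257 and 211 FPKM in group D and at 0.449, 0.712 and 0.581 FPKM in group C, a mean 402-fold lower. No library with Cu/ES came near one without it. The reads behind these values were 27109 to 34357 in group A and 20 to 38 in group B, so that the low values rest on few reads. The log2 fold change of H1f0 between groups C and D was -7.21 ± 0.11 (SE, n = 3). H1f0 averaged under 1 FPKM in groups B and C. It therefore passed the limit for testing, a mean of 1 FPKM, only through groups A and D. Without a filter on low values its limma adjusted p was 3.41e-11. The median gene past the limit also fell between groups C and D, by 1.13 on the log2(FPKM + 1) scale. The difference of H1f0 from that median was -6.08.

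H1f10 (H1.10 or H1x), the other replication-independent linker gene, fell too. It was at 14.5, 21.1 and 16.4 FPKM in group D against 0.550, 0.647 and 0.496 FPKM in group C, a mean 30.7-fold lower (log2 fold change -3.54 ± 0.17). H1f10 too averaged under 1 FPKM in groups B and C and was tested only through groups A and D. Without a filter on low values its limma adjusted p was 4.03e-08. In the other pair of groups it was at 14.8, 24.2 and 17.3 FPKM in group A and at 0.980, 0.500 and 0.551 FPKM in group B. H1f10 thus behaved in the same direction as H1f0 in both pairs, without overlap of the libraries.

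H1f2, the most abundant clustered linker gene, had overlapping FPKM values in all groups. It was at 21.0, 30.9 and 25.6 FPKM in group A and at 25.3, 20.6 and 27.7 in group B. With TCA it was at 16.8, 21.6 and 23.1 FPKM in group D and at 18.9, 27.9 and 19.4 in group C. All 4 groups overlapped, and groups C and D differed by 0.09 ± 0.17 in log2 fold change (limma adjusted p = 0.604). Relative to the median gene, H1f2 was higher by 1.22, and under median-ratio scaling, which sets the typical gene equal between libraries, it was higher in group C by 1.29. The remaining clustered linker genes, H1f1, H1f3, H1f4 and H1f5, had at most 41 reads in any library. Of the germline linker genes, H1f8, the oocyte linker histone, had 40 to 65 reads in group C and 14 to 28 in group D.

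The makeup of the linker signal in poly(A)-selected RNA changed with these genes. H1f0 held 86.8% to 89.0% of the summed linker FPKM in group A and 1.15% to 1.83% in group B. H1f2 held 6.07% to 7.01% in group A and 87.0% to 88.4% in group B. The sum over all 10 linker genes was 385 ± 51.6 FPKM in group A and 273 ± 25.9 in group D, against 27.9 ± 3.92 in group B and 25.7 ± 5.05 in group C (SD, n = 3). In poly(A)-selected RNA, most of the linker signal without Cu/ES was therefore that of H1f0, and most of the signal left with it was that of H1f2.

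**Figure D1:**
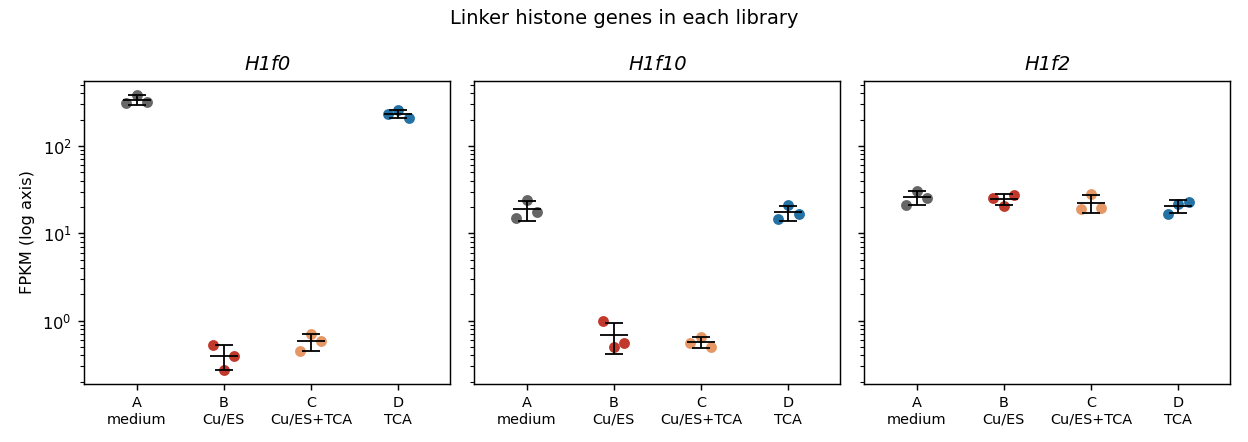
FPKM of H1f0, H1f10 and H1f2 in each library (points) with the mean and SD of the 3 libraries of a group (bars), on a log axis. H1f0 lay above 200 FPKM in groups A and D and below 1 in groups B and C, H1f10 also fell below 1 with Cu/ES, and H1f2 stayed between 16.8 and 30.9 FPKM in all 12 libraries.

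Clustered core genes were scarce in poly(A)-selected RNA. H2bc4, an H2B gene, was the most abundant of them and rose: it was at 2.47, 3.18 and 3.20 FPKM in group D and at 15.8, 24.0 and 21.5 in group C, a mean 6.93-fold higher (log2 fold change 2.43 ± 0.14, limma adjusted p = 4.10e-10). In group A it was at 4.89, 6.54 and 6.01 FPKM and in group B at 15.7, 14.9 and 17.6. The lowest library with Cu/ES thus exceeded the highest without it in both pairs. H2bc4 held 66.0% to 73.2% of the clustered H2B signal in group C.

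The H3 genes H3c14 and H3c15 and the H2A gene H2ac18 were nearly absent without Cu/ES. H3c14 was at 0, 0.0382 and 0 FPKM in group D and at 1.71, 4.75 and 2.10 in group C (log2 fold change 1.85 ± 0.20). Groups A and B showed the same order, at 0.118, 0, 0.0770 and 2.47, 2.26, 2.59 FPKM. H3c15 was at 0.0287, 0.0578 and 0.0288 FPKM in group D and at 1.57, 2.42 and 1.98 in group C. H2ac18 was at 0, 0 and 0.129 FPKM in group D and at 2.34, 3.85 and 1.05 in group C. These fold changes were 1.51 ± 0.13 and 1.63 ± 0.24 on the log2(FPKM + 1) scale, which understates the change of genes this low. H2bc3 (H2B) and H3c2 (H3) completed the 6 members that passed both thresholds upward, that is, an adjusted p below 0.05 together with a log2 fold change beyond 1 in size. Apart from H2bc4, these members reached the mean of 1 FPKM needed for testing only through groups B and C. They had to differ, so their calls are no support for a rise and no p-value is printed for them. H2bc3 was at 0.256, 0 and 0.258 FPKM in group D and at 2.17, 1.34 and 3.66 in group C, and H3c2 at 0, 0.358 and 0.204 against 1.66, 2.02 and 0.874. H3c2 stood near the threshold, with a log2 fold change of 1.07 that was 0.92 without C replicate 2 and 0.95 without D replicate 1.

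Other clustered genes went down or did not pass. H4c9, the most abundant H4 gene, was at 6.49, 6.79 and 6.28 FPKM in group D and at 0.256, 1.71 and 1.54 in group C, a mean 5.59-fold lower (log2 fold change -1.87 ± 0.30, limma adjusted p = 3.08e-05). Relative to the median gene, H4c9 was lower by a log2 difference of -0.75. Its log2 fold change was -1.01 under median-ratio scaling, with an adjusted p of 0.0151, or 0.0583 without a filter on low values, and -0.79 under quantile normalization, where it no longer passed (adjusted p = 0.0889). H2bc11 was at 1.91, 1.98 and 3.24 FPKM in group D and at 0.596, 0.621 and 0.672 in group C (log2 fold change -1.03 ± 0.21). Its level in group B was much the same as in group C (log2 fold change of C against B 0.03). H2bc11 thus reached the mean of 1 FPKM needed for testing through groups A and D. Without a filter on low values its limma adjusted p was 0.00346. Its fall was no larger than that of the median gene, and the call was lost under median-ratio scaling, where its log2 fold change was -0.34 (adjusted p = 0.162), under quantile normalization (-0.16) and with limma-voom on recovered reads (-0.91, adjusted p = 0.129). Without D replicate 3 the log2 fold change of H2bc11 was -0.85, short of the threshold on size. The genes H2ac4 (H2A), H3c1, H3c6 and H3c11 (H3) passed the adjusted p alone, each higher by 0.81 to 0.99 on the log2 scale. Of these, H2ac4, H3c1 and H3c6 were likewise tested only through groups B and C. H2ac13, H2bc21, H3c3, H3c10, H4c4 and H4c18 passed neither way, with log2 fold changes from -0.44 to 0.15.

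**Figure D2:**
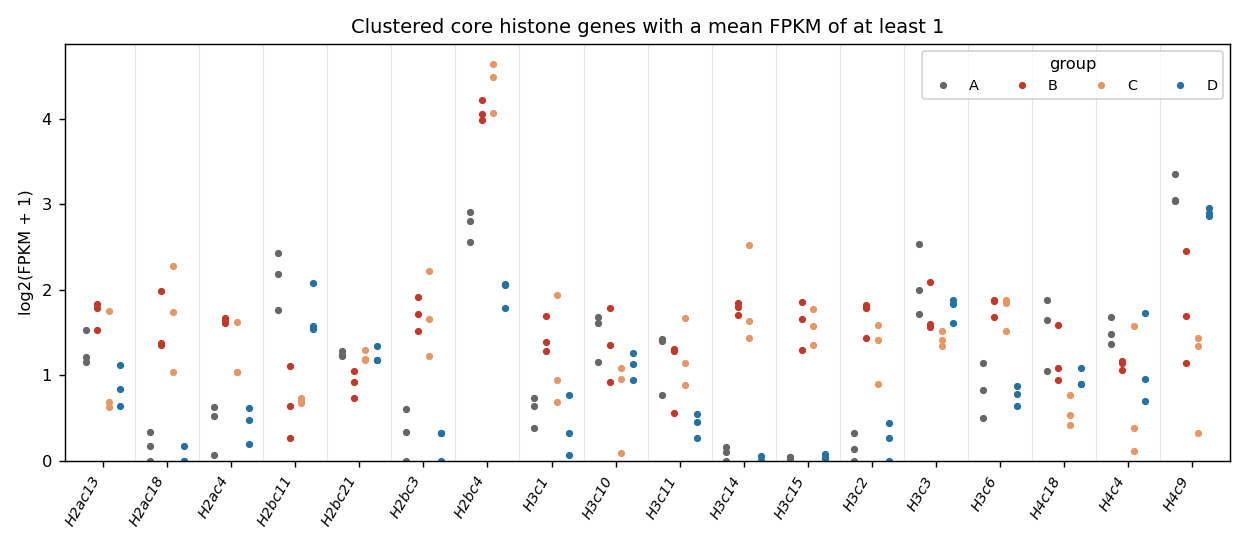
Level of each of the 18 clustered core histone genes that averaged 1 FPKM or more, as log2(FPKM + 1), in the 3 libraries of groups A, B, C and D (points). H2bc4, H2bc3, H2ac18, H3c2, H3c14 and H3c15 were higher with Cu/ES in both pairs of groups, and H4c9 and H2bc11 were lower. Of those that were higher, all but H2bc4 averaged 1 FPKM or more only through groups B and C. H2bc11 did so through groups A and D.

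Of the 73 members, 23 had a mean FPKM of at least 1 and were tested: H3c2, at 1.02, was the last inside this limit, and H4c3, at 0.935, the first outside. Between groups C and D, 6 of the 23 were higher past both thresholds (26.1%), against 11.2% of all 10615 genes tested, and 4 were lower (17.4%), against 53.3%. The median log2 fold change of the 23 was 0.23, against -1.13 over all genes. Between groups B and A, whose values chose the set, 7 lay above and 4 below the same limits (10.1% and 53% of all genes), which is no result about the members. For 8 of the 23, among them H2ac18, H2bc3, H3c2, H3c14 and H3c15, the mean was under 1 FPKM in both groups without Cu/ES, so they reached the limit only through groups B and C and had to differ. Likewise H1f0, H1f10 and H2bc11, which were lower, averaged under 1 FPKM in group C and reached the limit through groups A and D. The counts are no support for a rise or a fall of the family.

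**Figure D3:**
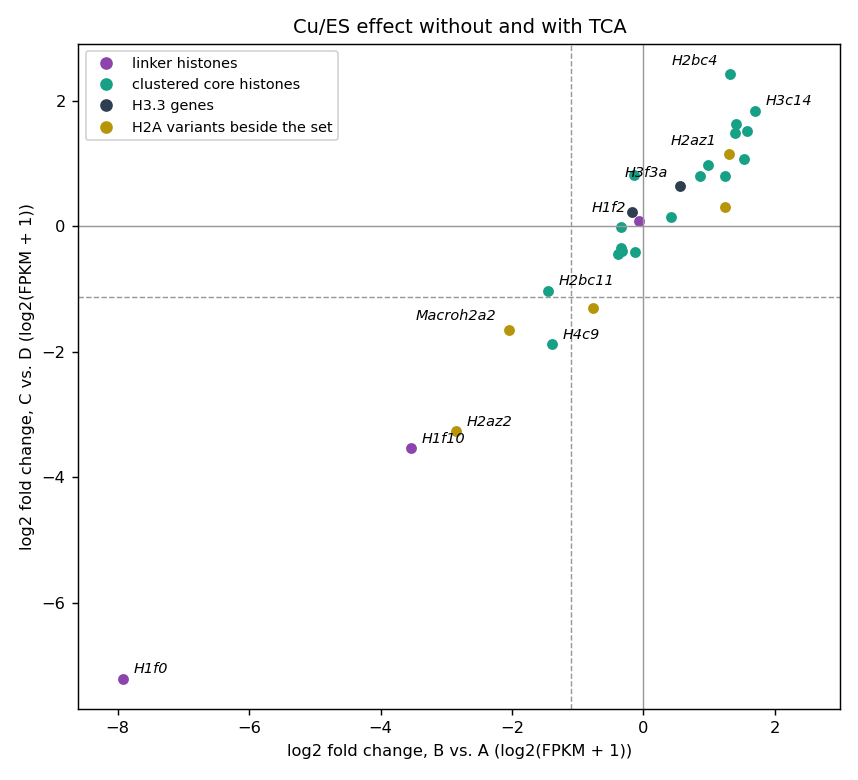
Log2 fold change of group B against A (x axis) and of group C against D (y axis), on the log2(FPKM + 1) scale, for the 23 tested members and 5 further H2A variants, with no libraries shared between the axes. Dashed lines mark the median of all 10615 genes, at -1.10 and -1.13: H1f0 and H1f10 lay far below both, and most clustered genes lay above both. Of the 23, 8 averaged under 1 FPKM in both groups without Cu/ES and could not fall by 1 or more on this scale. Their place above the lines is therefore no result. H1f0 and H1f10 averaged under 1 FPKM in groups B and C and were tested only through groups A and D.

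The 50 members below the limit had few reads, with no library above 2.84 FPKM. Counting every member without a test, all 3 libraries of group C lay above all 3 of group D for 20 of 73 members (27.4%, against 21.3% of all 24824 genes) and below them for 11 (15.1%, against 39%). Among the 50, this was so for 10 upward and 5 downward. H4c1 was the clearest, with 0 reads in each library of group D and 7, 16 and 29 in group C. H2ac19, whose model shares every stretch of 50 bases with H2ac18, had 0 to 2 reads in group D and 13 to 29 in group C. H4c3 went the other way, with 18 to 42 reads in group D and 0 to 6 in group C. With limma-voom on the recovered reads and no limit on FPKM, a choice made after the data were seen, 69 members could be tested, of which 31 were higher in group C than in group D past both thresholds (44.9%, against 33.7% of 19600 genes) and 7 were lower (10.1%, against 28.6%).

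The 4 core classes did not move together. Summed over their genes, clustered H2A came to 3.80 ± 0.62 FPKM in group D and 8.76 ± 1.99 in group C, H2B to 9.14 ± 0.68 and 28.8 ± 4.49, and H3 to 6.30 ± 0.78 and 15.7 ± 4.95 (SD, n = 3). H4 came to 13.2 ± 0.70 FPKM in group D and 4.44 ± 2.42 in group C, a mean 2.98-fold lower. Libraries of groups C and D did not overlap in any class. Groups A and B showed the same directions, with H2A at 5.40 ± 0.69 and 13.4 ± 1.98 FPKM, H2B at 14.1 ± 0.54 and 29.0 ± 0.79, H3 at 9.28 ± 2.11 and 18.8 ± 0.20, and H4 at 15.6 ± 0.91 and 9.16 ± 1.97. The 13 H4 genes together had 201 to 257 reads per library without Cu/ES and 20 to 147 with it. Relative to the typical gene the fall of H4 was small or turned: under median-ratio scaling the log2 ratio of the H4 sums was -0.30 between groups C and D and 0.52 between groups B and A, whereas the sums of H2A, H2B and H3 stayed higher with Cu/ES.

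**Figure D4:**
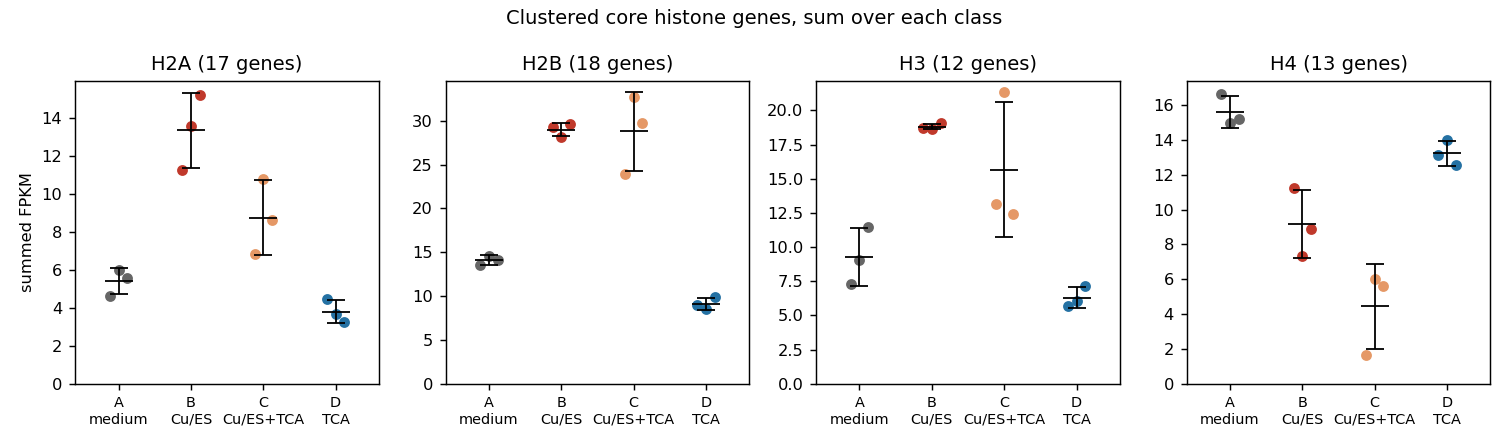
FPKM summed over the clustered genes of each core class in every library (points), with the mean and SD of each group (bars). H2A, H2B and H3 were higher in groups B and C than in groups A and D, and H4 was lower, from 13.2 FPKM in group D to 4.44 in group C.

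Both directions occurred among members with a stem-loop. Between groups C and D, the log2 fold changes of the 14 tested members with a match ran from -1.87 (H4c9) to 1.85 (H3c14). Those that passed upward were among the members tested only through groups B and C, so they are not counted against the rest. Of the 6 tested members with a 3′ end and no match, 1 was higher (H2bc4, against 11.2% of all genes) and 2 were lower (H1f0 and H1f10, against 53.3%). Those that were lower were tested only through groups A and D. By position, 53 members lie on chromosome 13 and 10 on chromosome 3 in RefSeq. On chromosome 3, 5 of the 10 had all libraries of group C above all of group D and none had them below, whereas on chromosome 13 this was so for 13 and 8 of the 53, against 21.3% and 39% of all genes. The genes on chromosome 3 include the near copies H2ac18 and H2ac19 and H3c14 and H3c15, which are not separate measurements.

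Many of these genes are near copies of each other, so reads may be split between them or dropped. In H2ac18, 89.2% of all stretches of 50 bases also occur in another member, and in H3c15 63.5%, in each case mostly in its pair, H2ac19 or H3c14. H2ac13 (84.6%), H3c10 (93.9%), H3c11 (87.6%) and H4c18 (85.6%) are as uncertain, and single-gene values of these members should be read as those of a family. Other members called between groups C and D share part of their stretches too. These are H3c2 (60.4%), H2bc11 (59.4%), H2bc3 (40.1%), H3c14 (34.7%), H2bc4 (29.3%) and H4c9 (28.9%). H1f0, H1f10, H3f3a, H3f3b and H2bc21 share no such stretch with another member.

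The H3.3 genes, H3f3a and H3f3b, encode the same protein, which is placed into chromatin outside DNA replication. They were the most abundant members. H3f3a was at 212, 227 and 213 FPKM in group D and at 310, 367 and 341 in group C, a mean 1.56-fold higher (log2 fold change 0.64 ± 0.08, limma adjusted p = 1.74e-06). It was at 224, 250 and 246 FPKM in group A and at 363, 326 and 378 in group B, so libraries with and without Cu/ES did not overlap. H3f3b overlapped between groups, at 263, 305 and 260 FPKM in group D and 257, 476 and 276 in group C (log2 fold change 0.23 ± 0.20, limma adjusted p = 0.276), and the 476 FPKM of C replicate 2 stood apart. The log2 fold change of H3f3b was -0.05 without that library, -0.06 as TPM and -0.26 under quantile normalization, but 1.49 under median-ratio scaling (adjusted p = 1.85e-05) and 1.14 with limma-voom on recovered reads (adjusted p = 6.27e-05), so its direction depended on the scaling. For H3f3a it stayed positive, from 0.24 under quantile normalization to 1.89 under median-ratio scaling. Together with the rarely read H3f3c, these genes held 97.5% to 98.0% of all H3 FPKM in group C and 98.5% to 98.9% in group D. The share was 96.9% to 97.2% in group B and 97.8% to 98.5% in group A, so it was slightly lower with Cu/ES in both pairs. In poly(A)-selected RNA the H3 signal was thus nearly all H3.3.

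The 5 H2A variant genes outside the set give the context for H3.3. H2az1 and H2az2 encode the variants H2A.Z.1 and H2A.Z.2, found at promoters, and moved in opposite directions. H2az1 was at 227, 220 and 228 FPKM in group D and at 400, 729 and 431 in group C (log2 fold change 1.15 ± 0.18, limma adjusted p = 2.15e-05). C replicate 2 was the highest, and without it the log2 fold change of H2az1 was 0.88, under the threshold on size, as it was as TPM (0.87) and under quantile normalization (0.67), whereas median-ratio scaling gave 2.41. H2az2 was at 38.0, 39.7 and 34.3 FPKM in group D and at 2.51, 4.23 and 2.47 in group C, a mean 12.2-fold lower (log2 fold change -3.26 ± 0.13, limma adjusted p = 6.95e-12). H2az2 accordingly held 13.1% to 15.3% of the FPKM of the pair in group D and 0.569% to 0.623% in group C. Its share was 16.2% to 17.6% in group A and 0.767% to 1.06% in group B. Macroh2a1 and Macroh2a2 encode the large macroH2A variants of silent chromatin. Between groups C and D, the log2 fold change of Macroh2a1 was -1.29 ± 0.06 (limma adjusted p = 8.45e-11). That of Macroh2a2 was -1.64 ± 0.08. Macroh2a2 was listed at 0 in every library of group C and at 1.88 to 2.28 FPKM in group D. It averaged 0.0231 FPKM in group B, so it reached the mean of 1 FPKM needed for testing only through groups A and D. Macroh2a2 thus had to differ, and no p-value is printed for it. H2aj rose little from group D to C (0.31 ± 0.10, limma adjusted p = 0.00869), but by 1.24 between groups B and A. With TCA, H2aj was higher in group D than in A (0.48 ± 0.10, limma adjusted p = 0.00477). It was lower in group C than in B (-0.44 ± 0.10, limma adjusted p = 0.00272). The interaction for H2aj was -0.93 ± 0.14 (limma adjusted p = 3.16e-04).

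**Figure D5:**
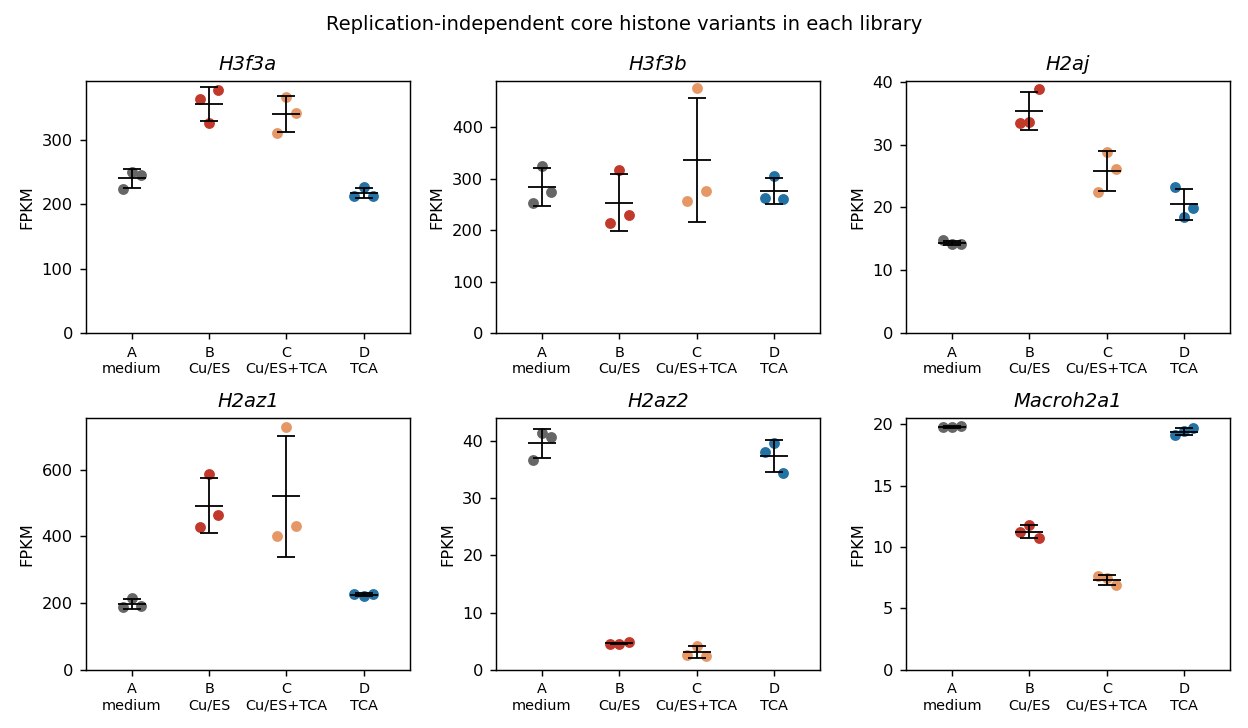
FPKM of the H3.3 genes H3f3a and H3f3b and of 4 H2A variant genes in each library (points) with the mean and SD of each group (bars). H3f3a and H2az1 were higher in groups B and C, H2az2 and Macroh2a1 were lower, and H3f3b overlapped. H2aj rose more from group A to B than from group D to C.

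TCA moved no member past both thresholds in the main fit. Between groups C and B, both given Cu/ES, none of the 23 passed both thresholds (2.29% of all genes did). By the adjusted p alone, H2bc21 was higher in group C, against 20.4% of all genes, and H2ac13 and H4c18 were lower, against 23.6%. Their log2 fold changes were 0.32 ± 0.09, -0.70 ± 0.24 and -0.63 ± 0.20 (limma adjusted p = 0.0109, 0.0289 and 0.0189), and H2ac13 overlapped between the groups. At an unadjusted p below 0.05, 2 members were higher and 6 lower by limma, and with limma-voom on recovered reads none of the 23 passed the adjusted p and 1 was higher and 3 lower at the unadjusted p. Between groups D and A, without Cu/ES, none passed both thresholds (0.217% of all genes did). Of the 23, 20 had a lower mean log2 value in group D and 3 a higher one. Their median log2 fold change was -0.20, against -0.01 over all genes, and this lean was not tested. By the adjusted p alone, none was higher (10.5% of all genes) and H1f0, H2bc4 and H3c11 were lower (11.5%), with log2 fold changes of -0.53, -0.79 and -0.77 (limma adjusted p = 0.00359, 0.00197 and 0.0310). At an unadjusted p below 0.05, 0 members were higher and 4 lower by limma, and 0 and 3 with limma-voom, which called 2 lower by the adjusted p and none past both thresholds. H1f0 was at 211 to 257 FPKM in group D and 309 to 385 in group A.

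The interaction term passed for the same 3 genes. The interaction, the effect of TCA with Cu/ES less that without it, was 0.71 ± 0.15 for H1f0. It was 1.1 ± 0.20 for H2bc4 and 0.96 ± 0.33 for H3c11 (limma adjusted p = 9.30e-04 and 0.0356). The term also holds the fall of H1f0 from group A to B, which was known when the set was chosen. No p-value of this fit is therefore printed for H1f0. No other member passed, against 17.7% of all genes upward and 19.8% downward. For H1f0 the interaction is measured from 20 to 57 reads per library in groups B and C. At the levels of group B, a fall of the same proportion as from group A to D would be only -0.13 on the log2(FPKM + 1) scale, so 0.40 of the 0.71 is what this scale gives by itself, and with limma-voom on recovered reads the adjusted p was 0.154, so a difference for H1f0 was not shown. For H2bc4 and H3c11 the scale gives -0.11 and 0.09. For H3c11 it was lost without a filter on low values, under median-ratio scaling, under quantile normalization and with limma-voom, with adjusted p up to 0.261, and without any of 7 single libraries, A replicates 2 and 3, B replicate 3, C replicates 2 and 3 or D replicates 2 and 3, with adjusted p up to 0.0868. For H2bc4 it held under every alternative tried.

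Genes that make and end histone messages were read from a list of 26, of which 25 were tested. Between groups C and D, 3 were higher and 6 lower past both thresholds (12% and 24%, against 11.2% and 53.3% of all genes), with a median log2 fold change of -0.47. Slbp, the protein that binds the stem-loop, was at 24.7 ± 3.17 FPKM in group C and 29.8 ± 2.38 in group D (SD, n = 3) and fell by 0.26 on the log2 scale, by the adjusted p alone (limma, 0.0238). Npat, which switches on the histone clusters in S phase, was higher by 0.68 ± 0.12 and Casp8ap2, its partner in the histone locus body, fell by 0.47 (limma adjusted p = 7.49e-05 and 0.00175). The largest falls were those of Lsm10, a subunit of the U7 particle that guides cleavage after the stem-loop, at 21.5 FPKM in group D and 0.273 in group C (log2 fold change -4.16), of Tut4, a terminal uridylyltransferase (-2.27), and of Cstf2, a cleavage factor (-2.23). Lsm11, the other U7-specific protein of the list, fell by 1.48. Of 17 polyadenylation genes, 2 were higher and 5 lower (11.8% and 29.4%), the largest changes being those of the cleavage factor Pcf11 (3.21), the poly(A) polymerase Papolg (-2.30) and Cstf3 (1.93).

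Histone chaperones, which carry histones to DNA, were divided. Of 28 tested, 7 were higher and 8 lower past both thresholds between groups C and D (25% and 28.6%, against 11.2% and 53.3% of all genes). Hira, which places H3.3, fell by 2.60 on the log2 scale, and Daxx, another H3.3 chaperone, differed by -0.14 (limma adjusted p = 0.0627). Chaf1a and Chaf1b, subunits of the chaperone CAF-1 that works behind the replication fork, moved apart, by -1.88 and 1.74. Asf1a fell by 1.50, and Asf1b fell by 0.96 and passed the adjusted p alone. The largest changes beside Hira were those of Ssrp1 of the FACT complex (-2.39) and Hat1, which acetylates new H4 (2.39).

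Of 35 genes of S phase, 8 were higher and 15 lower (22.9% and 42.9%, against 11.2% and 53.3% of all genes), with a median of -0.67 against -1.13. Pcna, the sliding clamp of DNA polymerases, was at 260 FPKM in group C and 129 in group D (log2 fold change 1.01), and Mcm2, a subunit of the replicative helicase, differed by 0.14 (limma adjusted p = 0.132). Tk1, Rfc5 and Ccna2 had the largest falls, with log2 fold changes of -4.14, -3.37 and -3.26. All 9 high-mobility-group genes, which encode DNA-bending and nucleosome-binding proteins that compete with H1 for chromatin, were lower by the adjusted p and 7 of them past both thresholds (77.8%, against 53.3%), with a median of -1.43 near the -1.13 of all genes. Hmgn3, Hmga2 and Hmgn5 had log2 fold changes of -2.24, -2.12 and -1.86, Hmgb2 of -1.13 and Hmgb1 of -0.68, the last passing the adjusted p alone. Of these 28 named genes, 6 changed sign under median-ratio scaling, among them Slbp, Hmgb1 and Hmgb2, which were then higher in group C by 0.95, 0.54 and 0.09.

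All values are shares of a library. The number of genes at 1 FPKM or more was at least 10570 in each library without Cu/ES and at most 8711 in each with it, and less RNA per cell and fewer cells cannot be told apart in bulk samples. Marker sums differed with Cu/ES as well. The 8 hepatocyte markers summed to 598 to 721 FPKM in groups A and D and to 192 to 296 in groups B and C, and the 4 cholangiocyte markers to 158 to 326 and to 111 to 140. The 5 macrophage markers, nearly all Cd68, summed to 72.5 to 102 FPKM in group A and to 24.1 to 37.0 in the other groups. The 6 stellate cell or fibroblast markers summed to 121 to 207 FPKM in groups A and D and to 1.47 to 5.21 in groups B and C, and the 4 endothelial markers to 0.865 to 1.25 and to 6.79 to 19.7 FPKM. None of the stellate cell, fibroblast or endothelial markers reached 1 FPKM in every library. The part of these cell types in the histone values was not tested. For single genes, an exact permutation test of 3 libraries against 3 cannot give a p below 0.1, which H1f0, H1f10, H2bc4 and H4c9 each reached between groups C and D.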

How the data were processed

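AML12 cells in 4 groups of 3 libraries were analysed, grouped by the sample labels. The authors deposited FPKM values, one column per library, from polyadenylated RNA sequenced on an Illumina NovaSeq. The submitters' processing notes name fastp, HISAT2 and HTSeq and the build GRCm39, without versions, and the authors tested expression with DESeq2. How reads that match several genes were counted is not given in the sources used here.

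Genes that averaged 1 FPKM or more were fitted as log2(FPKM + 1) with limma 3.58.1 (R 4.3.3), in one model of all 12 libraries (trended empirical Bayes, 8 residual degrees of freedom), and p-values were adjusted by the Benjamini-Hochberg method over all 10615 genes. A gene was called where its adjusted p was below 0.05 and its log2 fold change exceeded 1 in size, the interaction at the adjusted p alone. Group C was compared with D as the test of Cu/ES, since group B against A was known when the members were chosen. Whole reads were worked out from the steps between FPKM values for all 22212 genes above 0 in at least 2 libraries (tolerance 0.01 reads), and cover counting error only. The members and gene lists were chosen with earlier results of these data known.

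All members could be named. Values were given for members and H2A variants that averaged 1 FPKM or more, and from each list for the 3 largest called changes without overlap between groups C and D and for genes named in advance, such as Slbp and Pcna. Members outside this were singled out after their values were seen. Sequences came from GENCODE M21 and RefSeq on GRCm38, not the build of the files. The fits were tested on simulated data. Alternatives were another pseudocount or filter, TPM, median-ratio and quantile scaling, a replicate block, only the groups compared, each library left out and limma-voom on recovered reads. Python 3.11.15 with pandas 2.3.3 and scipy 1.17.1 was used for the tables.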

Additional observations from a re-analysis of the deposited data

Results flagged for a closer look

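For 3 members the interaction term of the limma fit passed, which compares the response to TCA in Cu/ES-treated cells with that in cells not given Cu/ES. The difference was 0.71 ± 0.15 on the log2 scale for H1f0, which was lower in each library of group D than in any of group A and overlapped between groups C and B. Of this, 0.40 is what the log2(FPKM + 1) scale gives for an equal proportional fall at the low level of group B. With limma-voom on recovered reads H1f0 did not pass, so a difference was not shown. The term also holds the fall of H1f0 from group A to B, which was known when the set was chosen, so no p-value is printed for it. The difference was 1.1 ± 0.20 for H2bc4 (adjusted p = 9.30e-04), lower in each library of group D than in any of group A and overlapping between groups C and B. It was 0.96 ± 0.33 for H3c11 (adjusted p = 0.0356), the least stable of the 3. No other member of the 23 tested passed this test.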

How the results depend on the processing

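The number of members called was 11 between groups B and A, 10 between C and D, 0 between C and B, 0 between D and A, and 3 for the interaction. With a mean FPKM of at least 5 only 6 members could be tested, and 3 were called in each of the comparisons B vs. A and C vs. D. Median-ratio scaling gave 16 between C and D and limma-voom 16. Without a filter, median-ratio scaling gave 22 (B vs. A), 20 (C vs. D), 1 (C vs. B) and 7 (interaction), and limma-voom, chosen after the data were seen like it, gave 38, 38, 3, 1 (D vs. A) and 1 (interaction). Limma-voom with the filter gave 1 for the interaction. Between C and B a pseudocount of 0.1 gave 2 and quantile normalization 1, and between D and A the smaller pseudocount and TPM gave 1 each. With each library left out in turn, the counts ran from 11 to 12, 9 to 11, 0 to 1, 0 to 0 and 2 to 4.

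The replicate block gave 11, 10, 0, 0 and 3 calls and changed none of these counts. Deviations from the group means correlated over 0.1 in 11 of 18 same-numbered pairs, from -0.17 to 0.58. The mean correlation was 0.13 for same-numbered pairs and -0.06 for the others, and 9 of 12 libraries correlated best with their own number. Libraries may thus be paired by number. The main fit did not pair them, and the replicate block is the alternative that does.

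As TPM, the log2 ratios of the class sums of B to A were 0.94 for H2A, 0.67 for H2B, 0.65 for H3, -1.14 for H4, -4.16 for the linker genes and -0.15 for H3.3, against 1.31, 1.04, 1.02, -0.77, -3.79 and 0.22 as FPKM. Under median-ratio scaling they were 2.60, 2.33, 2.30, 0.52, -2.50 and 1.51. The ratios of C to D as TPM were 0.91 for H2A, 1.36 for H2B, -3.71 for the linker genes and 0.16 for H3.3, and under median-ratio scaling 2.47, 2.92, 2.59 (H3), -0.30 (H4), -2.14 and 1.73.

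Signs turned for H2bc21 between B and A (0.32 under median-ratio scaling with and without a filter, 0.71 under quantile normalization, 0.33 in both limma-voom fits) and between C and D (0.71, 1.04 and 0.90), for H3c3 between C and D (0.49 under median-ratio scaling and 0.86 under quantile normalization), for Macroh2a1 between B and A (0.44, 0.16 and 0.18) and for Macroh2a2 in the interaction (-1.36 and -1.37 in the limma-voom fits); the cause was not tested beyond the scaling itself. Over 65 single-gene results, 968 of 1098 repeats kept direction and side of the adjusted p threshold, 68 lost significance, 20 gained it and 19 turned. In another 23 repeats, of 8 results such as H3f3b and H1f2 between C and D, the sign changed while neither value passed.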
